A study of Bombyx mori with 64 samples.

Results

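SW-7 is 1 of the 106 miRNA probes on a Bombyx mori microarray, and it is read here as a probe for bmo-miR-1. The deposited files number the probes and do not name them. The name was assigned because the largest signal on the larval arrays, 79375.67 in the female head, is the signal given for miR-1. The probe was thus chosen by its level in the larval head. The order of the larval tissues is described without a test, and the main tests were kept to the sex difference outside the head and to the metamorphosis specimens, none of which the choice used. Signals of a probe are compared between specimens only, since a probe's brightness also depends on its own sequence.

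MicroRNAs are short RNAs that pair with messenger RNAs and lower their translation or stability. miR-1 is among the most conserved animal miRNAs, and in vertebrates it is made in heart and skeletal muscle. Flies also make it in muscle, and Drosophila larvae that lack it have defective muscle. In the RefSeq gene table of assembly ASM3026992v2 the silkworm has the entries Mir1a and Mir1b, which overlap each other, and Mir133, another miRNA known from muscle in vertebrates, stands next to them. SW-7 could not be assigned to either of these entries. The study lists a probe sequence for miR-1 without a probe number, so no sequence is printed here for SW-7.

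The study asked where silkworm miRNAs are found and how their levels change from larva to pupa. Small RNA was labelled with Cy3 and hybridised to 64 arrays, which stand for 32 specimens with a slide a and a slide b each, and every probe was printed as 3 spots per array. All animals were of the bivoltine strain DaZao, reared on mulberry leaves. In the first set, 18 specimens came from fifth-instar larvae of day 3: the head, malpighian tubules, hemocytes, fat body, midgut, body wall and both the anterior and the posterior part of the silk gland from either sex, with the ovary and the testis. In the second set, 14 specimens held both sexes: fat body, silk gland, body wall and midgut of day 7 larvae of the same instar, of larvae at the start of spinning and of prepupae at 0 hours, and body wall and fat body of day 1 pupae. The title of the pupal fat body gives day 2 and its other labels day 1, and day 1 was used.

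Each tissue, sex or stage had 1 specimen, slides a and b carried the same RNA, and the labels do not say how many animals were pooled. The p-values below therefore weigh a difference or slope against how far specimens depart from it across tissues or stages. They do not weigh it against replicate specimens, and the number of specimens limits the precision. The signals are normalized signals: the brightness of a spot less its local background (the net signal), times 1 factor per array, averaged over the 3 spots. The factor ran from 0.635 to 3.17 on the larval arrays and from 0.629 to 1.46 on the others. The arrays fall into 10 groups by a numeric prefix of their names, called array batches here, although no source says what the prefix stands for. Among the larval arrays each tissue had a batch of its own apart from the gonads, which shared one. In the larvae the tissue therefore cannot be told apart from its batch. The batches of the larval malpighian tubules and body wall also held metamorphosis specimens. Net signals stop near 65000, and a spot at 64000 or more is called saturated here. None of the 108 SW-7 spots on larval arrays was saturated, against 15 of 84 in metamorphosis, in 4 specimens. Where SW-7 reached 1000, the study's threshold for expression, its 3 spots had a median coefficient of variation of 6.36%. The log2 difference between its slides had a median of 0.11 and a maximum of 0.61. Both medians include body wall arrays with all 3 spots saturated. There the ceiling held the coefficient at 0.012% to 0.038% and kept the net signals of the slides nearly level.

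In day 3 larvae SW-7 was brightest in the head. The 2 slides of the female head read 78511 and 79376, with a mean of 78943, and those of the male head read 71316 and 75261, with a mean of 73289. That the head held the largest signal is what the probe was chosen for. SW-68, which also reads as a miR-1 probe (below), was brighter in the male body wall than in either head. Which of these tissues held the most miR-1 is thus not settled by the signals. The head of a caterpillar holds the muscles of the mandibles and pharynx as well as brain and cuticle. In bulk tissue, more cells that make a miRNA and more of it per cell cannot be told apart.

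The body wall, which is cuticle and epidermis with the muscles of the segments, came next by its mean of 14543, but the sexes lay far apart. Slides a and b of the female body wall read 3856 and 5034, and those of the male body wall 23924 and 25357. The midgut, a digestive epithelium within a muscle layer, had signals of 13914 and 11457 in the female and 8475 and 9744 in the male. The midgut thus lay between the female and the male body wall, and their order was not resolved: by the mean of the log2 signals the midgut was the higher, at 13.39 against 13.35. The whole midgut range lay below that of the head.

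The malpighian tubules, the excretory organs of the insect, followed the midgut. The female tubules read 4878 and 5282 and the male tubules 3042 and 2738. Both lay above the study's threshold and below the midgut. In the fat body, the insect's storage and metabolic organ, the male specimen passed 1000 with 1347 and 1332, and the female did not, with 531 and 768.

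The remaining 8 specimens all lay below 1000. The ovary had a mean of 508 and the testis of 310, with 1 specimen each. The anterior silk gland had means of 222 in the female and 267 in the male, and the posterior silk gland of 82.5 and 152. The hemocytes, the circulating blood cells, had 7.33 in the female and 175 in the male. SW-7 thus reached 1000 in 9 of 18 larval specimens and 10000 in 4. In the order head, body wall, midgut, malpighian tubule, fat body, ovary, testis, anterior silk gland, posterior silk gland and hemocyte, the ranges of neighbours overlapped for body wall and midgut and for posterior silk gland and hemocyte. The other neighbours did not overlap, with 1 or 2 specimens each. Beyond the neighbours, body wall and malpighian tubule overlapped as well. The female body wall, with a mean of 4445, lay below the female tubules at 5080. Slides differed widely among the low signals, as in the female anterior silk gland, with 90.7 against 353, and in the female hemocytes, with 2.67 against 12.0.

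**Figure D1:**
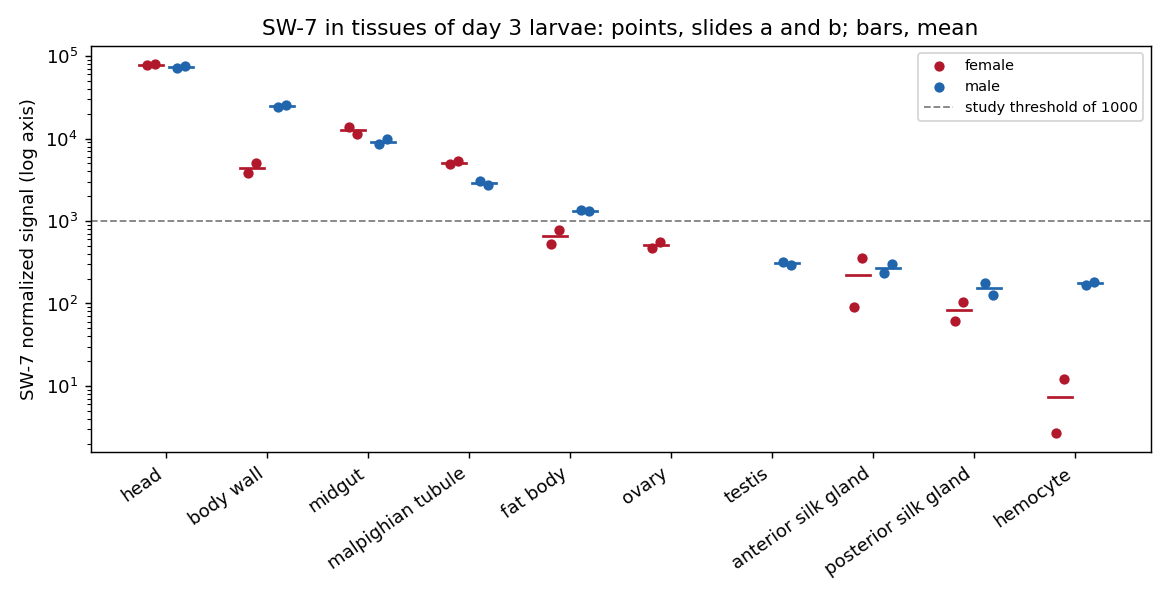
Normalized signal of SW-7 (log axis) in 10 tissues of day 3 larvae, with 1 point per slide, a bar at the mean of the slides, and the sexes in different colours. The head points lie between 71316 and 79376, and the female and male body wall stand apart on either side of the midgut.

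The distance between the head and the other tissues depended on the scaling of the arrays. Before scaling, slides a and b read 28272 and 25072 in the female head, 28188 and 34287 in the male head, and 32879 and 37809 in the male body wall. By net signal the male body wall, with a mean of 35344, was thus above the female head at 26672 and the male head at 31238. The factors of the head arrays were 2.20 to 3.17, and those of the body wall arrays 0.671 to 0.823. On the same arrays the net signal of U6, a small nuclear RNA named with 5S rRNA as the basis of the scaling, was 7067 to 11164 in the head and 37530 to 42104 in the body wall. The 5S rRNA spots lay near the ceiling, at 62156 to 65147 over the larval arrays.

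The mean of the head was 5.23-fold that of the body wall in normalized signals and 1.41-fold in net signals. Against the midgut the values were 6.98-fold and 3.07-fold, and against the malpighian tubule 19.1-fold and 7.17-fold. With the arrays brought to equal medians instead, the head exceeded the body wall by 3.64 and the midgut by 1.69 on the log2 scale, against 2.87 and 2.83 in normalized signals. Head above midgut held under each of these scalings, and head above the male body wall did not hold in net signals. The share of an array's summed signal that fell on SW-7 does not depend on the factor, though it moves with the other probes. It was 18.1% in the female and 18.6% in the male head, 13.4% and 9.75% in the midguts, 3.37% and 7.83% in the body walls, and 0.977% and 0.710% in the malpighian tubules.

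**Figure D2:**
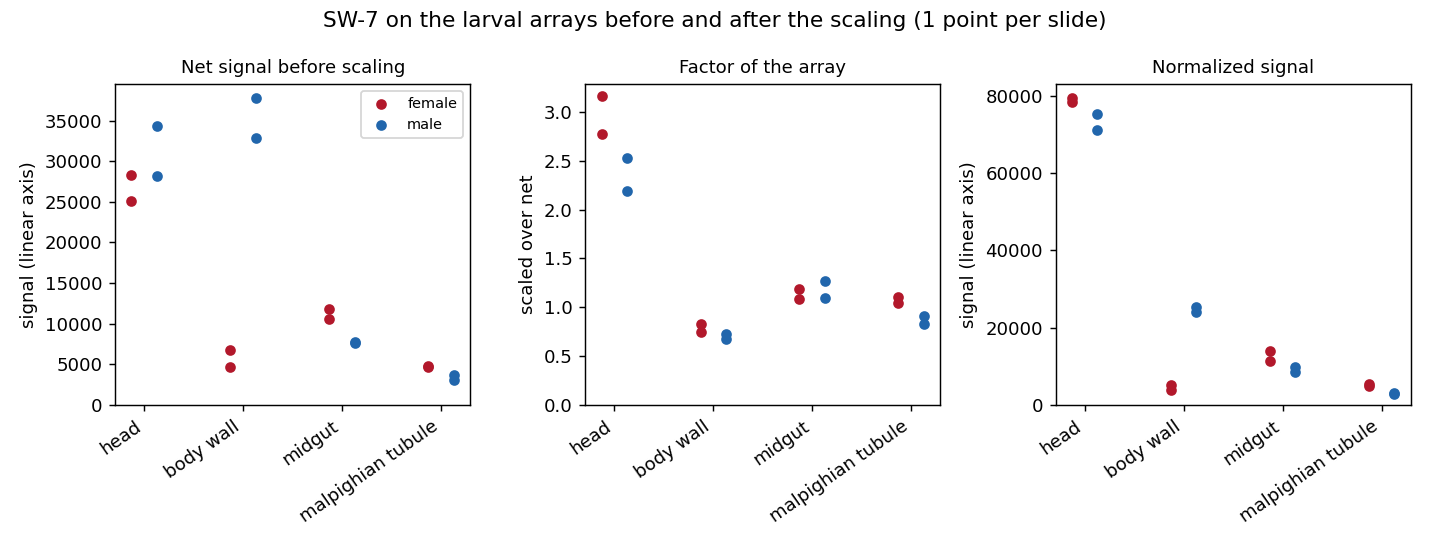
SW-7 on the larval arrays of 4 tissues: the net signal (left), the factor of the array (middle) and the normalized signal (right), on linear axes with 1 point per slide. The male body wall is at 32879 and 37809 before scaling, above most head arrays, and at 23924 and 25357 after it, below all of them.

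The sexes were compared within 8 tissues. The widest difference was in the body wall, where the male signal was 5.54-fold the female signal, 6.20-fold on slide a and 5.04-fold on slide b. All 54 other probes tested in the larvae were also higher in the male body wall, with a median log2 difference of 0.98, against 2.48 for SW-7, which was second among the 55. In the male fat body SW-7 was 2.06-fold higher, at 1.07 on the log2 scale, while the median of the other 54 probes was 0.00. In the malpighian tubules the female was 1.76-fold higher (male minus female -0.81 on the log2 scale, median of the others -0.21), and in the midgut 1.39-fold (-0.47, median of the others 0.08).

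In the head the sexes lay close, at -0.11 in normalized and 0.23 in net signals on the log2 scale, with the sign turned. The silk glands and hemocytes were below 1000 in both sexes, and no fold is given for them. With signals under 100 set to 100, the log2 differences there were 0.50 in the anterior and 0.56 in the posterior silk gland and 0.81 in the hemocytes.

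Over the 7 tissues other than the head, with tissue as a block, the male was higher by 0.59 on the log2 scale (SE 0.30, limma adjusted p = 0.501), with 5 tissues in that direction and 2 in the other. Both parts of the silk gland and the hemocytes, below 1000 in both sexes, were among the 5. No probe passed an adjusted p under 0.05 in this comparison, 0.0% of 55, and 4 had an unadjusted p under 0.05. An exact two-sided permutation test that turned the signs of the 7 differences gave p = 0.188 for SW-7, where the smallest possible value is 0.0156. Leaving out the female body wall lowered the difference to 0.27 (adjusted p = 0.773), and leaving out the female malpighian tubule raised it to 0.82 (adjusted p = 0.0781). A sex difference shared by the tissues was thus not shown for SW-7, and within a tissue the sexes cannot be tested with 1 specimen each.

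**Figure D3:**
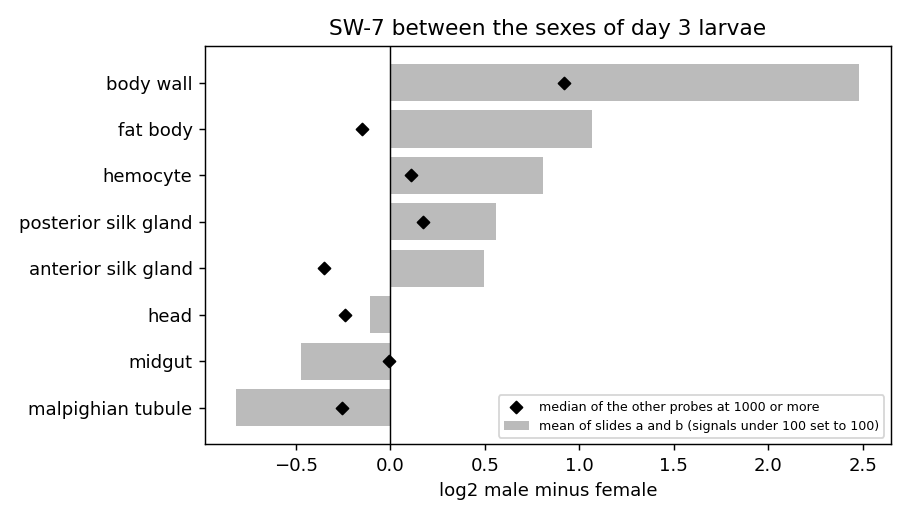
Difference of SW-7 between male and female day 3 larvae in 8 tissues (bars, log2 scale, means of slides a and b), beside the median of the other probes that reached 1000 in that tissue (diamonds). SW-7 ranges from 2.48 in the body wall to -0.81 in the malpighian tubules, and in the body wall the other probes are higher in the male as well.

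During metamorphosis SW-7 was at 1000 or more in all 14 specimens and at 10000 or more in 8. Normalization differed between the 2 sets of arrays, so their signals are given side by side only. The body wall of day 7 larvae read 21348 on slide a and 26121 on slide b. At the start of spinning it read 64802 and 56391, with all 6 spots saturated, so the rise was at least 2.55-fold, or 3.68-fold by net signal. The other 82 probes tested had a median log2 change of 0.96 there, against 1.36 for SW-7.

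The prepupal body wall read 40696 and 41539, again with all 6 spots saturated, and its arrays had the lowest factors of the set, 0.629 and 0.646. The pupal body wall read 68529 and 64401, with 1 of 6 spots saturated. No fold is given between spinning, prepupa and pupa, because the ceiling limits the signal. By net signal the 3 stages ran 64958, 64542 and 55095, so that the normalized rise from prepupa to pupa was a fall before scaling. Each of the 3 body wall steps also passed from one array batch to another, and the share of the batch in them was not tested.

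The midgut is rebuilt at metamorphosis, when the larval epithelium is replaced. SW-7 read 33827 and 25240 there in day 7 larvae, 40156 and 41205 at spinning with 2 of 6 spots saturated, and 58172 and 54606 in prepupae. With the saturated spots at spinning, the normalized step to spinning was at least 1.38-fold upward and the step from spinning to prepupa at most 1.39-fold upward. The first was also upward in net signals (at least 1.59-fold), while the second was downward there, from 59273 to 45325. The second step also passed from one array batch to another, and its direction in the midgut differed between net and normalized signals.

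The fat body had the lowest single signal and the widest change between stages. It read 1804 and 1523 in day 7 larvae, 1088 and 997 at spinning, 11199 and 10824 in prepupae, and 2213 and 2137 in pupae. The prepupal signal was 10.6-fold that at spinning (13.3-fold by net signal) and 5.06-fold that of the pupa (5.03-fold by net signal). None of these spots was saturated, and all 4 fat body specimens were in the same array batch. Between spinning and prepupa the rise of SW-7 by 3.40 on the log2 scale was the largest among the 83 probes tested, where the other 82 had a median of -0.12. From prepupa to pupa its log2 change of -2.34 was the largest fall of the 83, with a median of -0.06 for the others. Each stage is 1 specimen, so these steps have no replicate check.

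The silk gland, which makes the cocoon silk and then breaks down, had signals of 5482 and 3821 in day 7 larvae, 2189 and 1434 at spinning, and 4183 and 4215 in prepupae. The fall to spinning was 2.57-fold and the rise to the prepupa 2.32-fold. Other probes moved the same way, with a median of -0.71 in the first step and 0.67 in the second, against -1.37 and 1.24 for SW-7. The spinning silk gland was in another array batch than the silk glands before and after it. The share of the batch in these steps was not tested.

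**Figure D4:**
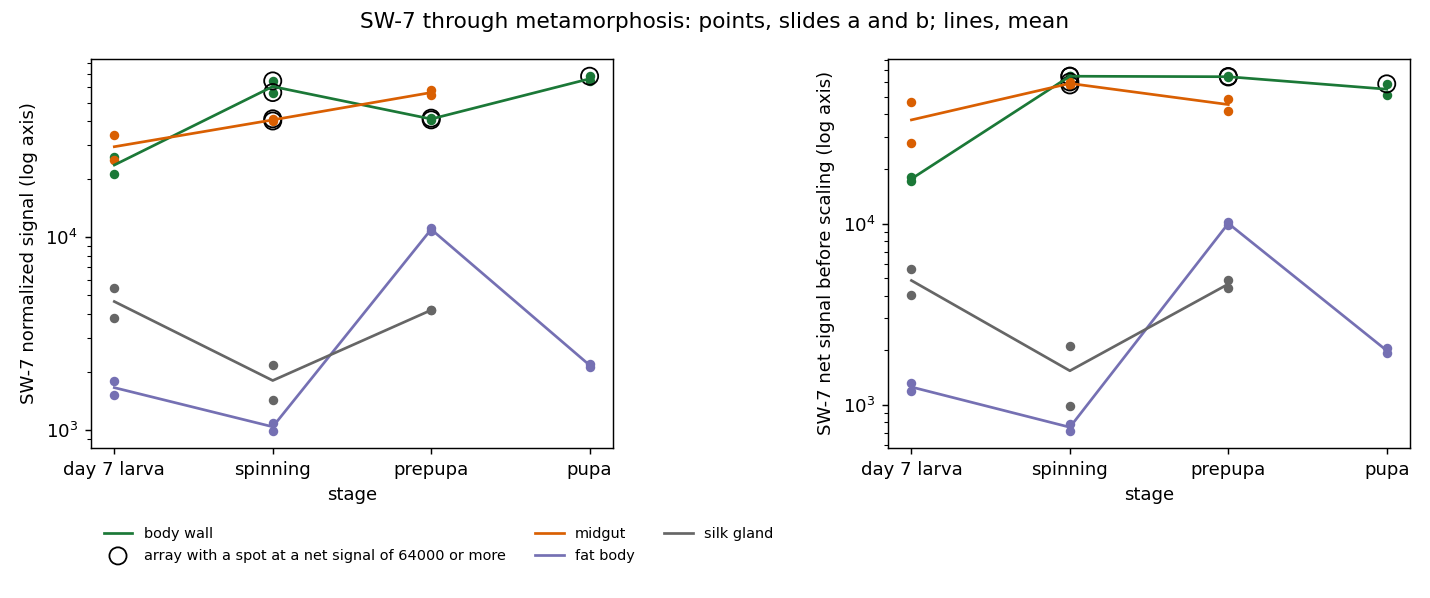
SW-7 in 4 tissues from day 7 larva to pupa, as normalized signals (left) and net signals before scaling (right), on log axes, with 1 point per slide, lines through the means and circles around arrays with a saturated spot. No body wall or midgut slide is below 21348 in normalized signal, and the fat body has a single high stage, the prepupa at 11011.

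The tissues differed during metamorphosis. With stage as a factor, the limma F test over the 4 tissues gave an adjusted p of 1.16e-13 (F = 41.3) for SW-7, where 61.4% of the 83 probes passed, and SW-7 had the third smallest p. Tissue took up 89.8% of the variance of SW-7 within stages, and an exact permutation of the tissues within stages gave p = 0.00651. The limma test borrows the spread of all probes, which the permutation does not. Body wall and midgut formed the high pair and fat body and silk gland the low pair.

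The log2 signal of the body wall was above that of the fat body by 4.13 (SE 0.47, adjusted p = 7.55e-11), the largest of 83 differences in a comparison in which 18.1% of probes passed. It exceeded the silk gland by 3.72 (SE 0.52, adjusted p = 1.78e-08), with 56.6% of probes passing, most of them lower in the body wall (37 of 47; in net signals 12 passed). The ceiling held the body wall signal down in both comparisons. The midgut exceeded the fat body by 4.06 (SE 0.52, adjusted p = 3.00e-09, 28.9% passing) and the silk gland by 3.65 (SE 0.54, adjusted p = 9.46e-08, 9.64% passing).

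Within the pairs no difference passed. Body wall minus midgut was 0.07 (SE 0.52, adjusted p = 0.905), where 10.8% of probes passed. The ceiling limits this value most, because saturated spots lay in 3 of the 4 body wall specimens against 1 of the 3 midgut specimens, so that a difference above the ceiling would not be seen. The remaining pair, fat body minus silk gland, was at -0.41 (SE 0.52, adjusted p = 0.484), where 44.6% passed. The sign of both turned under some settings.

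Array batch was mixed with tissue here: the 14 specimens lay in 3 batches, of which 1 held only the day 7 body wall. With batch as a block the F test gave an adjusted p of 0.00115, and body wall minus fat body was 4.47 (SE 0.71, adjusted p = 0.00260). Values from the same stage and batch had the same order. At spinning the body wall was at least 33.5-fold above the silk gland and at least 58.1-fold above the fat body. In prepupae the body wall was at least 9.79-fold above the silk gland and, in another batch, the midgut was 5.12-fold above the fat body. In day 7 larvae the midgut was 6.35-fold above the silk gland, and in pupae, with 1 of 6 body wall spots saturated, the body wall was at least 30.6-fold above the fat body.

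A trend shared by the 4 tissues was not shown. The slope of SW-7 was 0.36 on the log2 scale per stage step (SE 0.20, adjusted p = 0.275), where 8.43% of the 83 probes passed and the median of the probes was 0.21. Permuting the stages within tissues gave an exact two-sided p of 0.207. The slopes were 0.39 (SE 0.35) in the body wall, 0.47 (SE 0.55) in the midgut, 0.46 (SE 0.35) in the fat body and -0.06 (SE 0.55) in the silk gland. The body wall slope runs over 3 stages with saturated spots and the midgut slope over 1, so the ceiling limits both and the test between slopes. That test did not pass (F = 0.24, adjusted p = 0.923). It was passed by 0.0% of probes, with 3 at an unadjusted p under 0.05. A slope does not describe the fat body, where the prepupa stood above the stages on both sides: it was 0.19 without the prepupa and 1.37 without the pupa (adjusted p = 0.0645). The body wall slope was 0.07 without its day 7 larva. Within the batch that held 8 of the specimens the common slope was 0.35, and within the batch that held 5 it was 0.05.

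The probe whose pattern was most like that of SW-7 was SW-68, in both sets. Over the 18 larval specimens Pearson's r of the log2 signals was 0.976 and Spearman's rho 0.988, and over the 14 metamorphosis specimens they were 0.984 and 0.960. The specimens share arrays, factors and tissues between the probes, so these values are a description. With the median of each array taken out, r was 0.960 and 0.986. Over the other probes tested r had a median of 0.56 in the larvae and -0.03 in metamorphosis.

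SW-68 was on the same side of 1000 as SW-7 in all 18 larval specimens and in 12 of the 14 metamorphosis specimens. Its male body wall signal was 30711 against 5425 in the female, 5.66-fold, and it was 1.65-fold higher in the female malpighian tubules, the same directions as SW-7. In the fat body it went from 944 at spinning to 6422 in prepupae and 2492 in pupae. In the larvae the head set the probes apart. SW-68 read 18687 in the female and 19837 in the male head, below its own male body wall, while SW-7 was highest in the head. The study's text mentions alternative probes for some miRNAs, miR-1 among them, without their numbers. Its male-to-female ratios for miR-1 in the body wall and fat body match slides a and b of SW-68, not of SW-7. In the body wall these SW-68 slides read 31728 and 29695 in the male, against 6034 and 4815 in the female. Its female-to-male ratios for the malpighian tubules match SW-7 instead (1.60 on slide a and 1.93 on slide b). By these ratios SW-68 reads as another miR-1 probe, though no label names it.

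The next probes by likeness in the larvae were SW-1 (r = 0.914), SW-75 (0.910), SW-49 (0.897) and SW-6 (0.885). In metamorphosis they were SW-1 (0.894), SW-49 (0.889), SW-75 (0.840) and SW-63 (0.669). SW-1, SW-49 and SW-75 were thus near SW-7 in both sets. In the male body wall SW-1 was 3.14-fold, SW-49 3.57-fold and SW-75 2.63-fold above the female, and SW-6 was level at 1.00-fold.

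**Figure D5:**
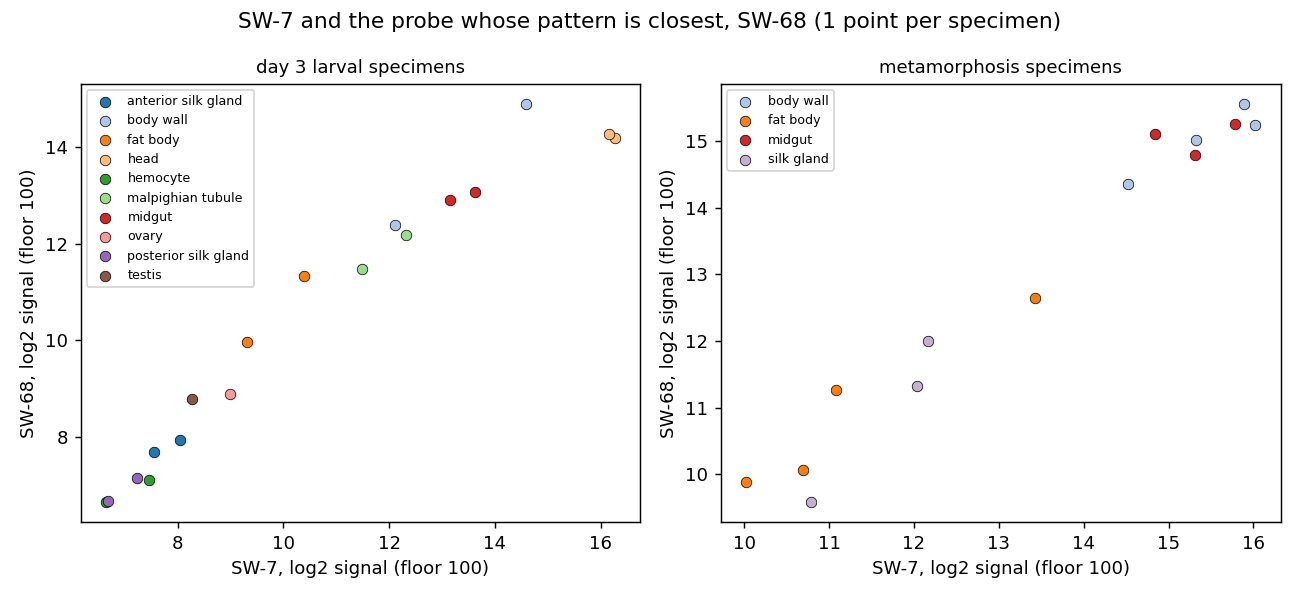
Log2 signal of SW-68 against that of SW-7, with 1 point per specimen and signals under 100 set to 100, in day 3 larvae (left, 18 specimens, r = 0.976) and in metamorphosis (right, 14 specimens, r = 0.984). The head points lie to the right of the line of the other larval points.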

How the data were processed

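The authors read the Cy3 spots with LuxScan, took off the background around each spot, gave negative spots the value 10, filtered outlying spots and then applied 1 scaling factor to each array. For the larval arrays this factor was based on U6 with 5S rRNA, and for metamorphosis on a global median, according to the methods. The deposited values used here are these intensities on a linear scale, net and scaled, per spot and as the mean of 3 spots. The percent of pixels above background deposited for each spot was read but entered no test. The labels give day 3 for the larval tissues, which was used, although the study's text also names another day.

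After a floor of 100 the log2 signals of both slides were averaged, which gave 1 value per specimen. limma 3.58.1 in R 4.3.3 (lmFit, eBayes with a trend) was fitted to all probes at 1000 or more in at least 2 larval specimens (55 probes) or 3 metamorphosis specimens (83 probes), with Benjamini-Hochberg adjustment over them within each comparison and a threshold of 0.05. The tests were tested on simulated data. Exact permutation tests, figures and summaries used Python 3.11.15 with numpy 2.4.6, pandas 2.3.3 and matplotlib 3.10.9. The probes named besides SW-7 are the 5 with the highest Pearson correlation with it in each set. SW-7 and these lists were chosen with earlier results of these data known. The files number the other probes too, so no list of muscle miRNAs could be described.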

Additional observations from a re-analysis of the deposited data

Results flagged for a closer look

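The sex difference of SW-7 in day 3 larvae ran in opposite directions between tissues, on both slides of each. Male minus female on the log2 scale was 2.48 in the body wall and 1.07 in the fat body, against -0.47 in the midgut and -0.81 in the malpighian tubules. The difference between tissues was not tested, since each sex had 1 specimen per tissue.

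From day 7 larvae to spinning, SW-7 went up in the body wall by 1.36 and in the midgut by 0.48 on the log2 scale, and its log2 change was -1.37 in the silk gland and -0.67 in the fat body. The difference between these steps was not tested for the same reason. No group held enough specimens to look for a specimen far from the others.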

How the results depend on the processing

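The sex difference kept its sign and an adjusted or exact p above the threshold under all 14 alternatives. It ran from 0.23 with a floor of 1000 to 1.11 with a floor of 10. Of these alternatives 2 included the head, whose level chose the probe. The unadjusted limma p of this difference was under 0.05 with a floor of 10 (0.0379), quantile normalization (0.0146) and slide a alone (0.00976). The tissue test passed under all 13 (adjusted or exact p 2.79e-28 to 0.00651). The common slope did not pass under any of the 16 (0.05 within 1 array batch to 0.40). With 1 specimen left out, the sex difference ran from 0.27 to 0.82, the p of the tissue test from 5.64e-30 to 2.03e-05, the common slope from 0.27 to 0.50, and the p of the difference between slopes from 0.576 to 0.985. Head minus midgut moved to 1.69 with equal array medians and to 1.64 in net signals, and head minus body wall to 1.03 in net signals. Body wall minus midgut turned to -0.069 in net signals and -0.016 on slide a. With 1 specimen left out it ran from -0.42 to 0.50 and was below 0 without the day 7 midgut (-0.016), the prepupal midgut (-0.11), the prepupal fat body (-0.040), either pupal specimen (-0.064) or the spinning body wall (-0.42). Fat body minus silk gland turned to 0.70 with equal medians and 0.30 with quantile normalization, and ran from -1.19 to 0.15, turning without the day 7 silk gland (0.15) or the spinning fat body (0.031). The body wall slope turned to -0.069 with equal medians, and the silk gland slope to 0.0019 with equal medians and 0.071 on slide b, with a range of -1.37 to 1.24 when 1 specimen was left out. The same range was 0.07 to 0.48 for the body wall slope and 0.19 to 1.37 for the fat body slope. The causes were not tested.

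With the slide letter as a replicate block the common slope was 0.36 (adjusted p = 0.203) and the tissue test gave 3.88e-09, and no call changed. The letters did not pair specimens: deviations between slides had a median correlation of 0.02 in the larvae and 0.05 in metamorphosis.

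The number of probes that passed the tissue test was 51, but 21 in net signals and 39 with array batch as a block. Between pairs of tissues it was 47 for body wall against silk gland (12 in net signals, 22 to 50 with 1 specimen left out), 37 for fat body against silk gland (13, 15 to 43), 24 for midgut against fat body (19, 15 to 33), 15 for body wall against fat body (9, 10 to 16), 9 for body wall against midgut (5, 6 to 34, and 24 with equal medians) and 8 for midgut against silk gland (4, 5 to 10, and 19 with quantile normalization). For the common slope it was 7, with 3 with array batch as a block 0 or 12 within 1 array batch and 2 to 9 with 1 specimen left out. Array batch as a random block, the fits within a batch and those without the body wall (slope 0.35) were chosen after seeing the data. Scaling to equal U6 was not run for metamorphosis, because U6 reached the ceiling there.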
